A study of Mus musculus with 16 samples.

Results

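Messenger RNA of 10 genes that mark GABAergic interneurons was followed in hippocampus and neocortex, in mice whose forebrain pyramidal neurons lack Foxp1 and in littermate controls. The genes are the GABA-synthesizing enzymes Gad1 and Gad2, the transcription factors Dlx1, Dlx2, Dlx5, Dlx6 and Lhx6, and 3 genes of interneuron subclasses, Reln, Nos1 and Adarb2. They were taken by symbol from the table of 21999 genes, and all 10 were found and tested in every comparison. In knockout cortex, Nos1 and Reln were higher and Gad1 was lower. In knockout hippocampus, none of the 10 passed the test.

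GABAergic interneurons are the local inhibitory cells of cortex and hippocampus. They are born in the ventral telencephalon, where the paired Dlx genes act, and migrate into the cortex. Lhx6 acts in those from the medial ganglionic eminence, which become the parvalbumin and somatostatin classes. Foxp1 is a forkhead transcription factor that is abundant in cortical and hippocampal pyramidal neurons and in striatal projection neurons. The latter are GABAergic as well and share Gad1, Gad2 and the Dlx genes with interneurons.

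RNA was sequenced from 16 samples of left hemisphere tissue, 4 in each of 4 groups, from adult male mice at postnatal day 47. The groups are hippocampus (HIP) of controls and of conditional knockouts (cKO), and cortex (CTX) of controls and of conditional knockouts. The labels name neither the Cre line nor the deleted exons, nor any allele that the controls carry. They also do not say whether hippocampus and cortex samples come from the same mice. Replicates are called independent in the design text.

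Depth was 6943136 to 14817870 reads per library, so that 1 read was worth 0.0675 to 0.144 CPM (reads per 1000000 reads). Values below are given in the order of library numbers, which are 3, 6, 7 and 8 in control cortex and 1, 2, 4 and 5 in knockout cortex. They are 17, 20, 21 and 22 in control hippocampus and 15, 16, 18 and 19 in knockout hippocampus. Since the numbers of the regions do not mix, region cannot be told apart from any handling that went with them. Foxp1 itself fell to 39.9% of control in cortex and to 52.3% in hippocampus (limma adjusted p 3.9e-08 and 0.0072), with no overlap of libraries. All 16 libraries held 7 pyramidal markers at 3129 to 4279 summed CPM. Control hippocampus library 17 stood apart, with 7 oligodendrocyte markers at 12058 summed CPM against 4609 to 6326 in the other controls. Some hippocampal results are therefore also given without it.

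Gad1 encodes GAD67, the enzyme that makes most of the neuron's GABA, and lies at chr2:70553072-70602014 on the plus strand (GRCm38, GENCODE M21). Its level in control cortex was 358, 394, 380.2 and 384 CPM. In knockout cortex it was 337, 314, 332 and 324 CPM. Every knockout library lay below every control library. The knockout mean was 327 ± 9.91 CPM (SD, n = 4) against 379 ± 15.1 CPM (SD, n = 4), and the fall of the log2 level, -0.21 (SE 0.05), passed with limma at an adjusted p of 0.0055. When all 16 libraries were fitted together, the adjusted p was 0.0627 and the call was lost. Over the other 16 alternatives it was 0.00202 to 0.0262. In hippocampus Gad1 was 385, 369, 414 and 378 CPM in the controls and 398, 379, 306 and 413 CPM in the knockouts. These groups overlapped, and the log2 difference was -0.05 (SE 0.09, limma adjusted p 0.83). The difference between the regional effects, 0.16 on the log2 scale (SE 0.10), was not called (limma adjusted p 0.56).

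Gad2 encodes GAD65, the synaptic form of the enzyme, at chr2:22622205-22693874 on the plus strand. In control cortex it was 301, 346, 354 and 348 CPM. In knockout cortex it was 361, 374, 369 and 373 CPM. All 4 knockout libraries lay above the controls, the opposite side from Gad1, but with limma the log2 difference was 0.13 (SE 0.05, p 0.023, adjusted p 0.12) and was not called. In hippocampus Gad2 was 491, 426, 569 and 493 CPM in the controls and 572, 523, 419.6 and 606 CPM in the knockouts. The groups overlapped there, with a log2 difference of 0.09 (SE 0.11, limma adjusted p 0.76).

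Since Gad1 and Gad2 lay on opposite sides in cortex, their ratio was taken within each library. That choice followed from the values, so the ratio is given without a test. In cortex, Gad2/Gad1 in CPM ran from 0.840 to 0.931 over the controls and from 1.07 to 1.19 over the knockouts. Every knockout library had the higher ratio. CPM are not per length, so this is no ratio of transcript numbers. In hippocampus the ratio was 1.28 ± 0.092 (SD, n = 4) in controls and 1.41 ± 0.046 (SD, n = 4) in knockouts, and the ranges overlapped.

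**Figure D1:**
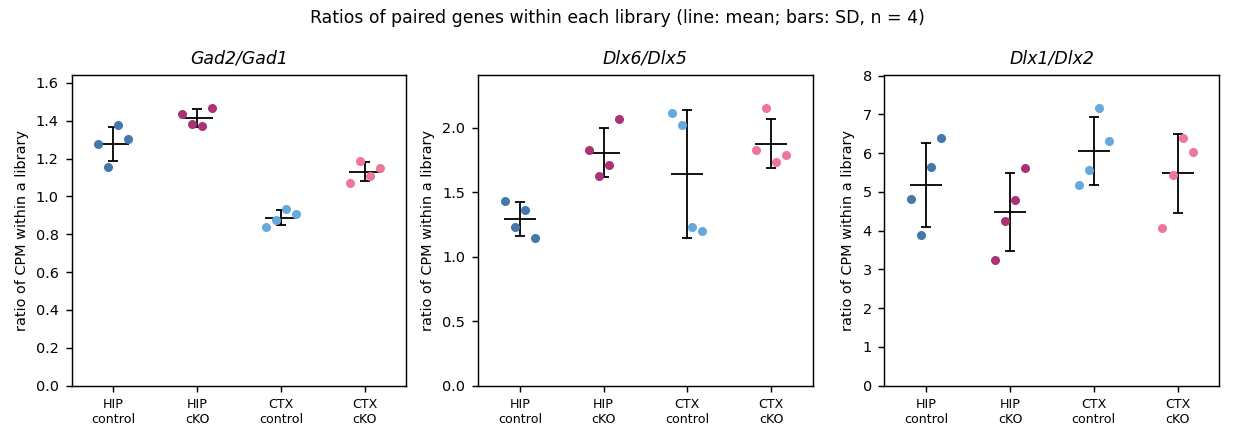
Ratios of CPM between paired genes within each of the 16 libraries, by region and genotype. Points are libraries, lines the mean and bars the SD of 4 libraries. Gad2/Gad1 separates the cortex groups (0.840 to 0.931 against 1.07 to 1.19), Dlx6/Dlx5 separates the hippocampus groups (1.15 to 1.44 against 1.63 to 2.07), and Dlx1/Dlx2 separates neither.

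Of 8 genes that make, load, take up or break down GABA, 0 were called higher and 1, Gad1, lower in knockout cortex, a share near the 13.5% of all genes called there. The number called lower ran from 0 to 2 over the alternatives, with 2 without knockout library 1. In hippocampus 0 passed with limma (1.38% of all genes did) or edgeR and 0 had an unadjusted p under 0.05. There 1 was called higher without knockout library 18. Slc32a1, the transporter that fills vesicles with GABA, was 19.8 ± 1.41 CPM in control and 19.3 ± 2.84 CPM in knockout cortex (SD, n = 4). Abat, which breaks GABA down, had a log2 difference of 0.13 in cortex (SE 0.05, limma adjusted p 0.14).

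The 4 Dlx genes are homeobox factors arranged as 2 convergent pairs. Dlx1 (chr2:71528113-71533981, plus strand) and Dlx2 (chr2:71543408-71546754, minus strand) are 9.43 kb apart, and Gad1 lies 926 kb from Dlx1. Dlx6 (chr6:6863334-6868568, plus strand) and Dlx5 (chr6:6877805-6882085, minus strand) are 9.24 kb apart. Antisense genes cover all 5869 bases of Dlx1 (Dlx1as) and all 5235 bases of Dlx6 (Dlx6os1), and Gad1, Reln and Nos1 also overlap antisense genes. None of these is a row of the table, and the sources used here do not give the strand setting of the counting. Reads of a gene and of its antisense partner therefore cannot be told apart for these 5 members.

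Dlx6 had the largest mean difference among the 5 transcription factors, but it did not pass in either region. In control hippocampus it was 14.1, 11.1, 15.8 and 7.90 CPM. In knockout hippocampus it was 24.8, 15.7, 13.2 and 19.6 CPM, with overlap between the groups. The log2 difference was 0.57 (SE 0.22), with an unadjusted p of 0.025 and an adjusted p of 0.28 by limma. In cortex Dlx6 was 12.7, 10.3, 9.89 and 7.90 CPM in controls. It was 15.6, 11.9, 10.4 and 13.9 CPM in the knockouts. The groups overlapped, and the log2 difference of 0.33 (SE 0.15) had a limma p of 0.044 and an adjusted p of 0.18. Leaving out each library in turn gave log2 differences of 0.39 to 0.71 in hippocampus and 0.22 to 0.44 in cortex, none of them called.

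Its neighbour Dlx5 was 9.81, 9.04, 11.6 and 6.88 CPM in control and 13.6, 9.65, 7.73 and 9.46 CPM in knockout hippocampus. The ratio Dlx6/Dlx5, chosen after the values were seen and given without a test, was 1.15 to 1.44 in control and 1.63 to 2.07 in knockout hippocampus. Those ranges did not overlap. In cortex they did, at 1.64 ± 0.494 in controls and 1.88 ± 0.190 in knockouts (SD, n = 4). Dlx5 in cortex was 5.99, 5.09, 8.06 and 6.56 CPM in the controls and 8.52, 5.51, 5.98 and 7.75 CPM in the knockouts. Its log2 differences were 0.10 in both regions (SE 0.19 in hippocampus and 0.17 in cortex) and not called.

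Dlx1 was 18.6, 17.7, 27.1 and 26.3 CPM in control and 18.8, 25.6, 17.96 and 23.6 CPM in knockout hippocampus. In cortex it was 26.7, 22.8, 30.4 and 24.6 CPM in the controls and 25.7, 26.0, 24.2 and 23.0 CPM in the knockouts. Neither pair of groups separated, with log2 differences of -0.05 (SE 0.16) and -0.07 (SE 0.10). Dlx2 was 3.86 to 4.80 CPM in control and 3.74 to 6.05 CPM in knockout hippocampus. It was 3.89 to 5.15 CPM in control and 3.78 to 6.30 CPM in knockout cortex. At 30 to 66 reads per library, its log2 differences of 0.15 (SE 0.17) and 0.07 (SE 0.18) were within the spread of libraries.

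Lhx6 (chr2:36081953-36105408, minus strand) had mean levels of 86.7% of control in hippocampus and 89.2% in cortex. Its levels were 8.87, 9.04, 13.7 and 14.2 CPM in control and 10.7, 9.36, 8.90 and 10.7 CPM in knockout hippocampus. In cortex they were 11.1, 12.5, 14.0 and 11.9 CPM in the controls and 10.8, 9.68, 12.1 and 11.6 CPM in the knockouts. The groups overlapped in both regions, and log2 differences of -0.17 (SE 0.17) and -0.16 (SE 0.12) were not called.

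Among 22 interneuron transcription factors, the 5 above included, 21 were tested in hippocampus. There 0 passed with limma (1.38% of all genes did) or edgeR, while 3 had an unadjusted limma p under 0.05. In cortex 19 were tested, 1 was higher and 1 lower, a share near the 13.5% of all genes called there. Without knockout library 4 or 5, 2 were higher (Nr2f1 and Nr2f2). Nr2f2, which marks interneurons from the caudal ganglionic eminence, was higher by 0.59 on the log2 scale (SE 0.13, limma adjusted p 0.0050), but not in the fit of all 16 libraries (adjusted p 0.229). Satb1, needed by interneurons of the medial ganglionic eminence, was lower by a log2 change of -0.35 (SE 0.05, limma adjusted p 2.4e-04), at 252 ± 14.8 CPM for controls and 198 ± 6.72 CPM for knockouts (SD, n = 4). The regional effects on Satb1 differed by 0.51 (SE 0.0954, limma adjusted p 0.00503). Nr2f1 (0.24) and Maf (-0.17) had log2 differences in cortex that did not pass. The libraries are of whole tissue, so these values do not show in which cells Satb1, Nr2f2 or the other factors changed.

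Reln encodes reelin, a large secreted glycoprotein made in the adult by interneurons of several classes and by Cajal-Retzius cells, and lies at chr5:21884454-22344702 on the minus strand. In control cortex it was 77.1, 87.1, 84.1 and 79.3 CPM. In knockout cortex it was 119.9, 119.7, 122 and 121 CPM. Every knockout library was above every control, and the 4 knockout values lay closer together than those of the other 3 groups. The mean was 147% of control, and the log2 rise of 0.56 (SE 0.06) passed with limma at an adjusted p of 3.2e-06. It was called under all 17 alternatives, at adjusted p 8.79e-07 to 0.0075.

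In hippocampus Reln was 56.1, 79.2, 62.5 and 105 CPM in the controls and 86.7, 79.4, 68.7 and 88.2 CPM in the knockouts. The control range enclosed the knockout range, and the log2 difference was 0.13 (SE 0.16, limma adjusted p 0.79). Without control library 17 it was -0.001205. The regional effects differed by -0.43 (SE 0.18), which did not pass (limma adjusted p 0.28). Without library 17 it was -0.56 and passed at 0.0474, the only 1 of 24 alternatives in which the regional difference in Reln was called. With each library left out in turn it ran from -0.56 to -0.26, with a limma adjusted p of up to 0.449.

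Nos1 encodes neuronal nitric oxide synthase, found at high level in a sparse class of long-range interneurons and at lower level in neurogliaform and other neurons, including hippocampal pyramidal cells. It lies at chr5:117781032-117958840 on the plus strand. In control cortex it was 38.3, 37.4, 45.1 and 38.1 CPM. In knockout cortex it was 69.1, 83.6, 83.4 and 69.9 CPM. All knockout libraries lay above all controls, with a mean of 193% of control. The log2 rise of 0.93 (SE 0.08) passed with limma at an adjusted p of 6.9e-07, and at 6.62e-08 to 3.21e-05 over 17 alternatives.

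Nos1 in hippocampus was 112, 137, 155 and 192 CPM in the controls and 143, 168, 173 and 173 CPM in the knockouts. The groups overlapped, and the log2 difference was 0.16 (SE 0.13, limma adjusted p 0.64), or 0.04 without control library 17. With each library left out in turn, that difference ran from 0.04 to 0.30 and was not called. The regional effects differed by -0.77 (SE 0.17), which passed with limma at an adjusted p of 0.0146, and at 0.00077 to 0.0388 over 24 alternatives. This was the 1 member of 10 called for the regional difference, where 2.72% of all genes were called (1.17% higher and 1.55% lower). In order of level, the hippocampus groups came first and overlapped, then knockout cortex, then control cortex, each cortex group clear of the next.

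Adarb2 encodes a brain-specific member of the ADAR family without known editing activity and marks interneurons from the caudal ganglionic eminence. It lies at chr13:8202866-8768747 on the plus strand. In hippocampus it was 60.03, 49.2, 42.8 and 52.6 CPM in the controls and 58.1, 58.6, 39.6 and 47.0 CPM in the knockouts. In cortex it was 34.1, 23.9, 32.1 and 26.4 CPM in the controls and 36.2, 33.7, 32.3 and 25.9 CPM in the knockouts. Genotype groups overlapped in both regions, with log2 differences of -0.02 (SE 0.13) and 0.14 (SE 0.12), and of 0.06 in hippocampus without control library 17. Of 5 ADAR family genes, 3 were tested, and Adarb1, an active editing enzyme, was lower in knockout cortex by a log2 change of -0.27 (SE 0.0516, limma adjusted p 0.0017).

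**Figure D2:**
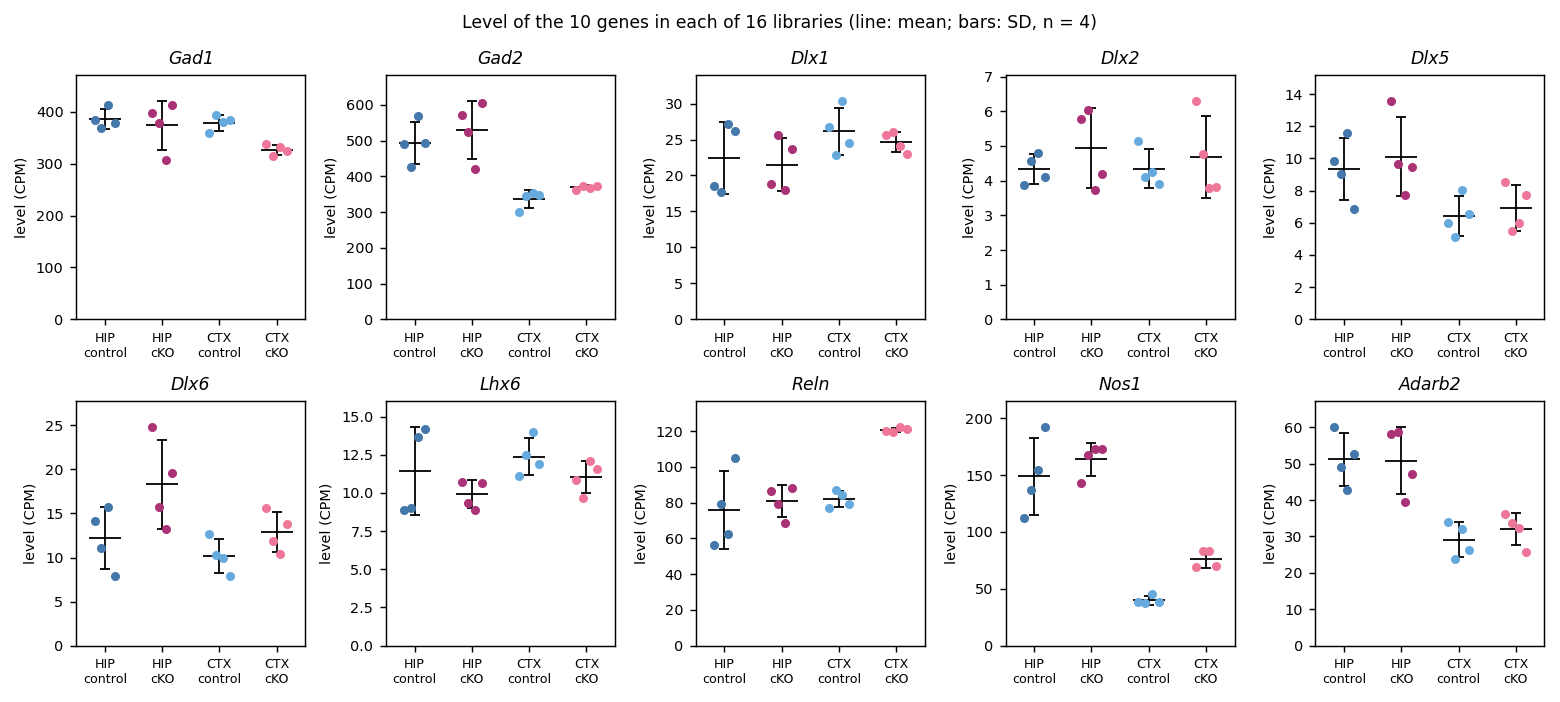
Level of each of the 10 genes in CPM, in all 16 libraries by region and genotype. Points are libraries, lines the mean and bars the SD of 4 libraries. In cortex the knockout libraries of Nos1 (69.1 to 83.6 CPM) and Reln (119.7 to 122 CPM) lie above the controls and those of Gad1 (314 to 337 CPM) below, while the hippocampus groups overlap for all 10 genes.

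Over the 10 genes, 3 passed in cortex, 2 higher and 1 lower, where 13.5% of the 13713 genes tested passed (7.64% higher and 5.83% lower). In hippocampus 0 of 10 passed with limma, where 1.38% of 13899 genes passed (0.662% higher and 0.719% lower). There 1 gene, Dlx6, had an unadjusted p under 0.05, and edgeR also called 0 of the 10. The libraries did not overlap for 4 of 10 genes in cortex (17.7% of all genes tested) and for 0 of 10 in hippocampus (8.01%). The median log2 difference was 0.12 in cortex, against 0.03 over all genes, and 0.10 in hippocampus, against 0.06. Over all genes, 1047 were higher and 800 lower in knockout cortex, or 829 and 951 after median-of-ratios rescaling. In hippocampus 92 were higher and 100 lower, or 60 and 135 after rescaling. The 3 calls in cortex were the same genes under that rescaling.

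**Figure D3:**
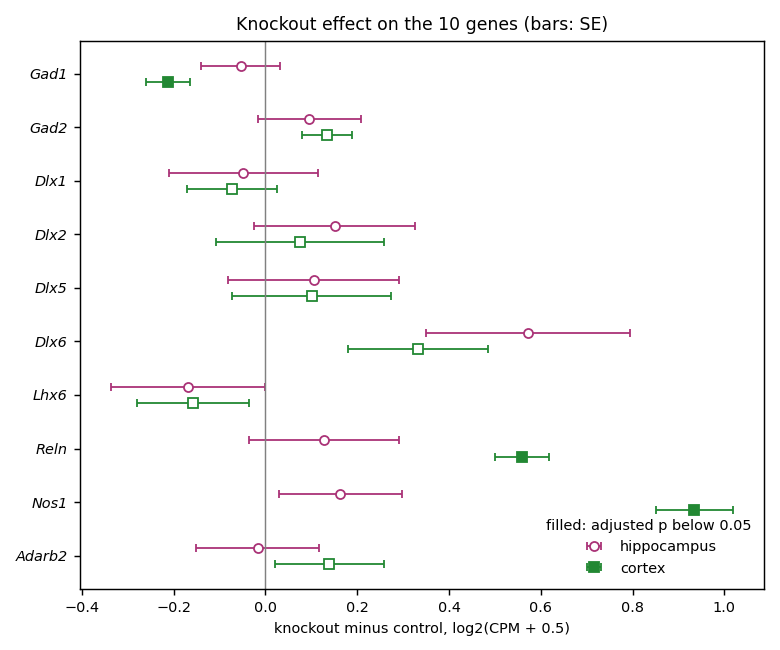
Knockout minus control on the log2(CPM + 0.5) scale for the 10 genes, in hippocampus (circles) and cortex (squares). Bars are the SE of the limma fit, and filled symbols have an adjusted p below 0.05. Only Gad1 (-0.21), Reln (0.56) and Nos1 (0.93) in cortex are filled.

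The authors' deposited table of 874 genes for cortex lists Nos1 with a log2 fold change of 0.911 (adjusted p 6.38e-19) and Reln with 0.5255 (adjusted p 1.55e-08). It lists none of the other 8 members. The authors' deposited table of 243 genes for hippocampus lists none of the 10. A deposited list of 48 genes that are higher in knockout cortex and also in the SFARI autism gene collection includes Reln and Nos1. A deposited list of 652 genes higher in mice with 1 deleted copy of Foxp1 includes 6 of the 10: Gad1, Gad2, Dlx1, Dlx2, Dlx5 and Dlx6. The sources used here do not name the tissue behind that list. In the present libraries 0 of those 6 genes were called higher in either region, and Gad1 was called lower in cortex. Over all genes, 7.64% were called higher in cortex and 0.662% in hippocampus, and 5.83% lower in cortex. With such shares, 0 of 6 does not set these genes apart from all genes.

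Between regions, 4 of the 10 genes differed in controls, all higher in hippocampus, where 38.0% of all genes were called (21.3% higher and 16.7% lower). Nos1 differed most, by 1.87 on the log2 scale (SE 0.12, limma adjusted p 1.9e-10), followed by Adarb2 with 0.81 (SE 0.14, adjusted p 9.6e-05) and Gad2 with 0.55 (SE 0.09, adjusted p 8.6e-05). Dlx5 was higher by 0.50 (SE 0.19, adjusted p 0.041), a call lost in 7 of 16 alternatives. The log2 difference of Gad1 was 0.03 (SE 0.07, adjusted p 0.81), at 386 ± 19.4 CPM in hippocampus and 379 ± 15.1 CPM in cortex (SD, n = 4). Reln had a log2 difference of -0.15 (adjusted p 0.38). Without control hippocampus library 22 it was -0.32 and passed at 0.0147.

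In knockouts 6 of 10 genes differed between regions, 5 higher and 1 lower in hippocampus, where 37.3% of all genes were called (22.2% higher and 15.2% lower). The log2 difference of Nos1 was 1.10 (SE 0.12, limma adjusted p 4.8e-07). Reln was lower in hippocampus, by -0.58 (SE 0.13, adjusted p 0.0013), and its order of levels had knockout cortex clear above the other 3 groups, which overlapped. Gad2 (0.51) and Adarb2 (0.65) were again higher in hippocampus in the fit and under all 16 alternatives. Gad1 (0.18, adjusted p 0.047) and Dlx5 (0.50, adjusted p 0.040) were called as well, but lost in 10 and 8 of 16 alternatives.

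The region upstream of the start site is shown for the 3 genes called in cortex, as a description of the members whose level differed. Foxp1 was deleted in pyramidal neurons, while these genes were chosen as marks of interneurons. Whether their changes are direct or secondary was not tested. Each sequence is the 250 bases before the RefSeq start (GRCm38.p6), read 5′ to 3′ on the gene's strand, with capitals for a match to a forkhead motif. They lie at chr5:117866589-117866838 (plus strand, Nos1), chr5:22344706-22344955 (minus strand, Reln) and chr2:70561879-70562128 (plus strand, Gad1). The RefSeq starts of Nos1 and Gad1 lie inside the genes' GENCODE spans.
Nos1: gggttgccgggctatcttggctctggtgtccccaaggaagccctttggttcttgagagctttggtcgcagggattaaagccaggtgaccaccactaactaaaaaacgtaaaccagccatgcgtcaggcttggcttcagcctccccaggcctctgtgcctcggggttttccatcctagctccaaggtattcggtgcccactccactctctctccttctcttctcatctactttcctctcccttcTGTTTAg
Reln: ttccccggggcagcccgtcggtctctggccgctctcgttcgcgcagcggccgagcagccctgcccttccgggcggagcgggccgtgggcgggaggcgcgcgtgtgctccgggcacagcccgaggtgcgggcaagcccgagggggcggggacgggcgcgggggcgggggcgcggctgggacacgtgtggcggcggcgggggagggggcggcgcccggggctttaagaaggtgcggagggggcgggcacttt
Gad1: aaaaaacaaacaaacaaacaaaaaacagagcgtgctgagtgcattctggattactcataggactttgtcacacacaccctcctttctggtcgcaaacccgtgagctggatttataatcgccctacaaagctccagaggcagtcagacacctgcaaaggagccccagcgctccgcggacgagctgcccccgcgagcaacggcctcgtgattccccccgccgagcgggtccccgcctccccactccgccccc

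Both strands were searched for the forkhead core TGTTTA. The longer form TGTTTAC, in which the core is contained, was searched as well, as were the forkhead variants spelled TATTTAT or, with another base before the last, TATTTGT. The homeobox core searched was TAATTA. The Nos1 sequence held TGTTTA on the gene's own strand, beginning 7 bases before the start. The Reln and Gad1 sequences held none of the 5 motifs in these 250 bases. Of 32817 promoters of the same length, 12% held TGTTTA, 3.16% TGTTTAC, 5.17% TATTTAT, 3.28% TATTTGT and 4.85% TAATTA. The Reln sequence was 80% G and C, the Gad1 sequence 58% and the Nos1 sequence 54%, against a median of 52.4%. Promoters were matched for 8 of the 10 genes, and among the others Adarb2 held TAATTA beginning 51 bases before its start. A match of letters is a description of the sequence and not a binding site.

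Reelin acts through the receptors Apoer2 (Lrp8) and Vldlr and the adaptor Dab1. Of 8 genes of this route, Reln included, 1 was higher in knockout hippocampus (0.662% of all genes) and 1, Reln, in knockout cortex (7.64% of all genes). In cortex 3 were higher without knockout library 1 (Reln, Lrp8 and Dab1), and 2 (Reln and Dab1) without control 7 or knockout 2. Lrp8 rose in hippocampus, at 179 ± 10.3 CPM for controls and 253 ± 14.7 CPM for knockouts (SD, n = 4), a log2 difference of 0.49 (SE 0.06, limma adjusted p 0.0028). In cortex its log2 difference was 0.18 (adjusted p 0.12), and the difference between regions, 0.31 (SE 0.11), was not called (limma adjusted p 0.15). The log2 difference of Dab1 was 0.21 in cortex (SE 0.07, limma adjusted p 0.0504) and -0.25 in hippocampus (SE 0.07, limma adjusted p 0.11), and its regional effects differed by -0.46 (SE 0.104, limma adjusted p 0.0171).

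Nitric oxide from Nos1 acts through soluble guanylate cyclase (Gucy1a3, Gucy1a2 and Gucy1b3) and the cyclic GMP-dependent kinases Prkg1 and Prkg2. Of 9 genes of this route, Nos1 included, 6 were higher and 1 lower in knockout cortex, where 7.64% of all genes were higher and 5.83% lower, with a median log2 difference of 0.46 against 0.03 over all genes. In hippocampus 0 of 9 passed with limma (1.38% of all genes did) or edgeR, and 2 had an unadjusted limma p under 0.05. Gucy1a3 was 240.1 ± 14.9 CPM in control and 499.7 ± 44.6 CPM in knockout cortex (SD, n = 4), a log2 rise of 1.05 (SE 0.0634, limma adjusted p 1.1e-08). Prkg2 was 24.0 ± 4.00 CPM in control and 49.9 ± 3.14 CPM in knockout cortex (SD, n = 4), also a log2 rise of 1.05 (SE 0.102, limma adjusted p 1.5e-06). Prkg1 (0.60), Gucy1b3 (0.46) and Dlg4, the scaffold that ties Nos1 to NMDA receptors (0.21), rose as well. Nos1ap, an adaptor of Nos1, fell by 0.40, a call lost without control library 6 or 7. The call of Dlg4 was lost in the fit of all 16 libraries (adjusted p 0.0864). The regional effects differed for 3 of the 9, where 2.72% of all genes were called. They were Nos1, Prkg1 (-0.74, limma adjusted p 0.00421) and Gucy1b3 (-0.49, limma adjusted p 0.00476). Without knockout hippocampus library 15, 5 were called, with Dlg4 and Gucy1a3 added. The genes of this route are expressed in many neurons, and several are also strongly expressed in striatal projection neurons.

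Interneurons fall into subclasses with their own markers. Of 29 such markers tested, Reln and Nos1 included, 11 were higher and 2 lower in knockout cortex, where 7.64% of all genes were higher and 5.83% lower, with a median log2 difference of 0.26 against 0.03 over all genes. Pvalb, the calcium buffer of fast-spiking basket cells, fell from 42.3 ± 1.73 CPM to 19.5 ± 1.83 CPM (SD, n = 4), a log2 change of -1.10 (SE 0.09, limma adjusted p 1.6e-07). Kcnc1, a potassium channel of fast-spiking cells, fell by 0.31. The related channel gene Kcnc2 did not fall, at 165.7 ± 6.93 CPM in control and 165.6 ± 9.80 CPM in knockout cortex (SD, n = 4). Calb1 (0.89), Lamp5 (0.54), Ndnf (0.46), Kit (0.42), Tac1 (0.61), Crh (0.71) and Crhbp (0.46) were higher and called under all 17 alternatives. Lamp5, Ndnf and Kit mark neurogliaform and related cells of the caudal ganglionic eminence, and Calb1, Tac1, Crh and Lamp5 are also expressed by other cortical neurons. Calb2 (0.71) and Id2 (0.29) were higher too, each lost in 9 of 17 alternatives. Npy and Cxcl14 were not higher in knockout cortex. Npy had a log2 difference of -0.18 (SE 0.07, limma p 0.025, adjusted p 0.12). Cxcl14 was 38.6 ± 1.66 CPM in control and 36.1 ± 3.42 CPM in knockout cortex (SD, n = 4). Sst, the marker of the somatostatin class, was 43.1 ± 2.20 CPM in control and 46.4 ± 4.92 CPM in knockout cortex, and Vip 58.8 ± 5.44 CPM and 68.8 ± 6.48 CPM (SD, n = 4), neither of them called.

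In hippocampus 2 of the 29 subclass markers were called higher and 0 lower, where 1.38% of all genes were called. Without control library 17, 3 were higher (Calb1, Calb2 and Tac1), and without control 20 or 21 or knockout 15, 16 or 19, Calb2 alone. Calb2, which encodes calretinin and is expressed by interneurons, Cajal-Retzius cells and immature granule cells, was 10.3 ± 6.13 CPM for controls and 60.5 ± 12.5 CPM for knockouts (SD, n = 4), a log2 difference of 2.64 (SE 0.31, limma adjusted p 0.0016). Calb1 was higher by 0.49, lost in 8 of 17 alternatives. The regional effects differed for 4 markers. With 2.72% of all genes called, they were Pvalb (0.88, limma adjusted p 0.00661), Calb2 (1.93, limma adjusted p 0.011), Npy (0.56, limma adjusted p 0.0317) and Nos1. The test of Npy was lost in 8 of 24 alternatives. That of Calb2 was lost with edgeR (adjusted p 0.0794). Without control hippocampus library 17, 4 markers in place of 1 were called in the direction of Nos1 (Reln, Nos1, Calb1 and Crhbp). Without knockout hippocampus library 15, 2 were called in that direction (Nos1 and Lamp5). These lists were chosen with earlier results of these data known.

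**Figure D4:**
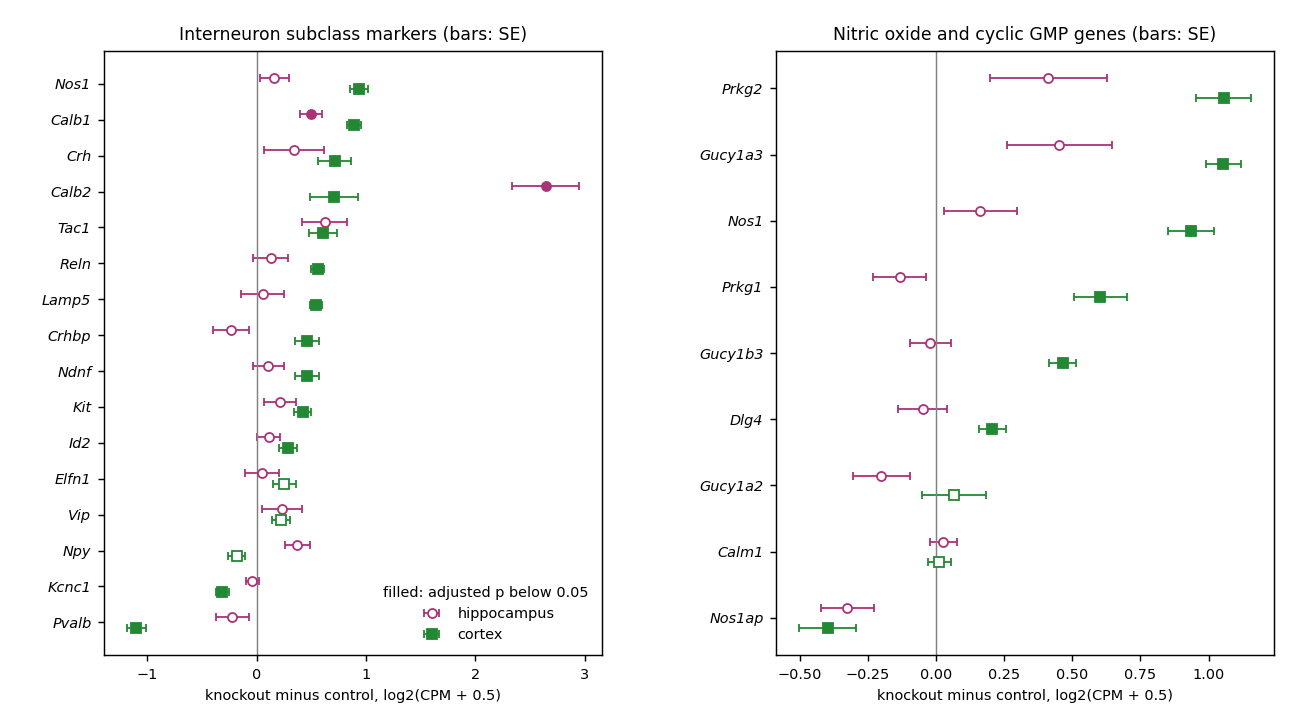
Knockout minus control on the log2(CPM + 0.5) scale for interneuron subclass markers (left) and genes of the nitric oxide and cyclic GMP route (right), in hippocampus (circles) and cortex (squares). Bars are the SE of the limma fit, and filled symbols have an adjusted p below 0.05. Pvalb falls (-1.10) and Gucy1a3 and Prkg2 rise (1.05 each) in cortex, while Calb2 (2.64) is the farthest symbol in hippocampus.

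In bulk tissue, fewer cells of a type and less RNA per cell cannot be told apart, and levels of other cell types moved with genotype too. The summed level of 15 striatal projection neuron markers was 337 to 719 CPM in control and 804 to 1219 CPM in knockout cortex. The groups did not overlap, and none of the markers was at 0 in all libraries. Of the 15 markers, 9 were called higher (among them Drd1 and Penk), where 7.64% of all genes were higher. In hippocampus the sums were 251 to 1202 CPM in controls and 631 to 1321 CPM in knockouts. There 0 of 15 passed, where 1.38% of all genes passed. In library order, as for the levels of the 10 genes above, the sums were 337, 719, 712 and 469 CPM in control cortex and 967, 804, 806 and 1219 CPM in knockout cortex. In hippocampus they were 1202, 618, 643 and 251 CPM in controls, then 1321, 631, 997 and 754 CPM in knockouts. The part of these markers in the results for cortex was not tested.

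Cajal-Retzius markers (8 genes, sharing Calb2 and Ndnf with the subclass list) summed to 26.7 to 35.3 CPM in control and 37.6 to 49.8 CPM in knockout cortex. In hippocampus they summed to 64.9 to 96.8 CPM and 104.7 to 152 CPM. The groups did not overlap in either region. The genes called higher were Calb2 in hippocampus (0.662% of all genes) and Calb2 and Ndnf in cortex (7.64% of all genes). Calb2 alone was 10.3 and 60.5 CPM on average in control and knockout hippocampus. Most of the sum in cortex was Ndnf, at 25.1 CPM in controls and 34.5 CPM in knockouts, while Calb2 was 3.60 and 6.54 CPM there. The other 6 genes of the list were low. In cortex, Lhx1 and Lhx5 had 0 reads in all 8 libraries, Trp73 was on average 0.18 CPM in controls and 0.12 CPM in knockouts, Nhlh2 0.16 and 0.20 CPM, Cxcr4 0.517 and 1.11 CPM, and Ebf3 1.23 and 1.41 CPM. In hippocampus the means in controls and knockouts were 0.286 and 0.574 CPM for Lhx1, 0.114 and 0.225 CPM for Lhx5 and 1.78 and 2.09 CPM for Trp73. They were 5.21 and 7.30 CPM for Nhlh2, 2.31 and 2.91 CPM for Cxcr4 and 2.24 and 2.44 CPM for Ebf3. Neuroblast markers (6 genes) summed to 179 to 193 CPM in control and 222 to 260.3 CPM in knockout cortex, and to 234 to 255 CPM and 277 to 342 CPM in hippocampus. Those called higher were Cd24a in hippocampus (0.662% of all genes) and Sox11 and Cd24a in cortex (7.64% of all genes). Sox11 averaged 57.6 CPM in control and 94.3 CPM in knockout cortex. Cd24a averaged 27.1 and 56.9 CPM in hippocampus. Dcx, Draxin and Sp8 were not called in either region. Igfbpl1 averaged 2.69 and 2.48 CPM in hippocampus and 0.21 and 0.52 CPM in cortex. Oligodendrocyte markers (7 genes) were lower in knockout cortex for 6 of 7, where 5.83% of all genes were lower. Their sums were 4644 to 6367 CPM in controls and 2781 to 3725 CPM in knockouts. Pyramidal markers overlapped in cortex, at 3605 to 3951 CPM in controls and 3675 to 3835 CPM in knockouts. In hippocampus they were 3458 to 4279 CPM in controls and 3129 to 3469 CPM in knockouts, where the ranges overlapped narrowly. The part of these cell types in the results was not tested.

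**Figure D5:**
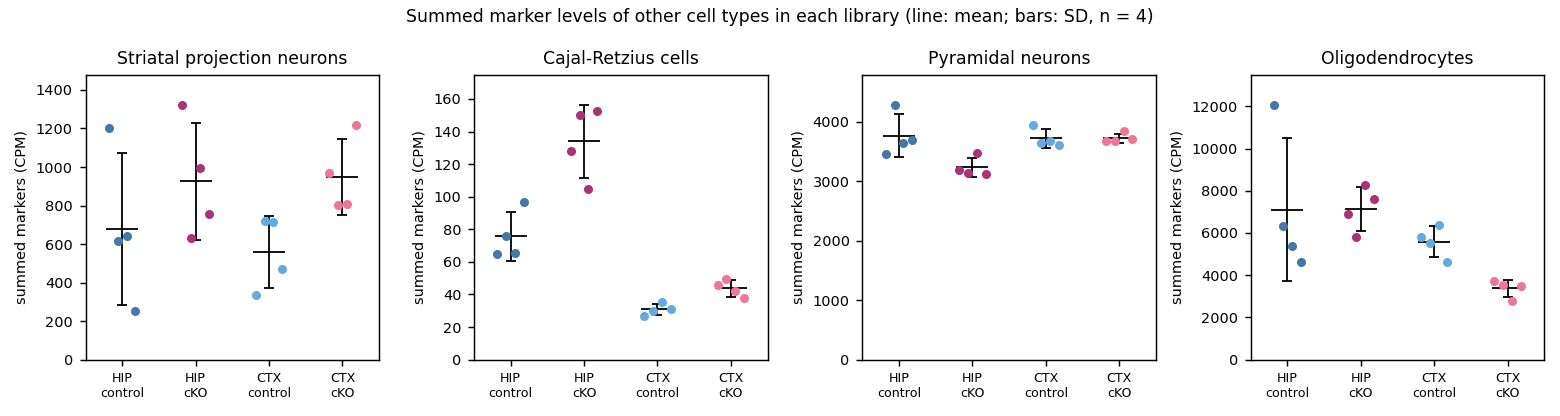
Summed CPM of marker genes of 4 other cell types in each of the 16 libraries. Points are libraries, lines the mean and bars the SD of 4 libraries. In cortex, striatal (804 to 1219 against 337 to 719) and Cajal-Retzius sums are higher and oligodendrocyte sums lower in knockouts, while control hippocampus library 17 has the highest oligodendrocyte sum (12058). Most of the Cajal-Retzius sum in cortex is Ndnf (means of 25.1 CPM in controls and 34.5 CPM in knockouts), which is also an interneuron marker.

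After each gene was centred on its 4 group means, the gene most like Gad1 among 12737 genes was Gad2, with a Pearson r of 0.900 over 16 libraries. For the other 9 genes it was no member. Dlx5 and Dlx6 had an r of 0.714, while the lowest values among the members were -0.61 for Dlx6 with Nos1, -0.46 for Dlx5 with Nos1 and -0.37 for Dlx6 with Reln. The gene most like Nos1 was Htr3a, a serotonin receptor subunit of caudal interneurons, with an r of 0.852. For Reln it was Nelfcd (0.853), for Dlx1 Galnt15 (0.937), for Dlx2 Epm2a (0.922) and for Lhx6 Engase (0.885). For Gad2, Dlx5, Dlx6 and Adarb2 it was Mphosph6 (0.914), Bola3 (0.914), Slc35b2 (0.914) and Slc40a1 (0.910). Each is the highest of many values from libraries that differ in depth and tissue content, and is given as a description.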

How the data were processed

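Poly(A) RNA of 16 samples was sequenced on a NextSeq 500, per the labels' protocols. Reads were processed with STAR, HTSeq and edgeR on mm10 (GRCm38), per the submitters' processing notes, and the authors deposited a table of 21999 genes in CPM. Its values were whole multiples of 1 read in 100% of cases (tolerance 0.001 reads), so that read counts were recovered from the deposited CPM. The authors' deposited tables of log2 fold changes with adjusted p-values, and their deposited symbol lists, are quoted as such.

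Comparisons used limma 3.58.1 in R 4.3.3 on log2(CPM + 0.5) with a mean-variance trend, keeping genes whose mean reached 0.5 CPM, and Benjamini-Hochberg adjustment over all genes, called below an adjusted p of 0.05. Fold changes on this scale understate those of low genes. Each region was fitted alone. Contrasts between regions, and the difference of knockout effects, used all 16 libraries and share them. Alternatives were pseudocounts of 0.1 and 1, no minimum or 1 CPM, median-of-ratios and quantile scaling, robust variances, edgeR 4.0.16 (quasi-likelihood) on recovered reads, all 16 libraries in 1 fit and each library left out. Fits were tested on simulated data.

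Named genes are the 10 members, every list gene called in either region, up to 3 more per list by smallest p in cortex (some are not reported here), further list and marker genes named for their role after their values were seen, and the gene most alike each member. The members and lists were chosen with earlier results of these data known. Annotation is GENCODE M21, and promoters are from RefSeq. No 2 replicates agreed within sampling noise (chi-square per degree of freedom 2.14 to 17.1 over 24 pairs). Levels were not compared between genes, beyond ratios within a library set against the same ratios in other libraries.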

Additional observations from a re-analysis of the deposited data

Results flagged for a closer look

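In control cortex, Gad2 in library 3 was 300.8 CPM, apart from the other 3 controls, and the gap took 0.849 of the group's range and passed Dixon's limit for 4 values. Nos1 in control cortex library 7 was 45.08 CPM, with a gap of 0.885 of the range. Over 40 groups of 4 libraries, chance flags about 1 in 20. The knockout effect on Nos1 in hippocampus minus that in cortex was -0.7714 on the log2 scale (limma adjusted p 0.0146), since its log2 difference was 0.93 in cortex and 0.16 in hippocampus. Nos1 was higher than all controls in 4 of 4 knockout libraries in cortex.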

How the results depend on the processing

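The 604 alternative values counted are those of all 10 members within each region, of the 3 members called in cortex for the regional difference and of the 6 called between regions. Of these, 559 kept their direction and side of the threshold, 26 lost a call, 2 gained one and 17 changed sign. The cause of these changes was not tested. The number of genes called over all genes in hippocampus was 192, 446 with all 16 libraries in 1 fit, and 56 to 295 with each library left out (295 without control 17, 56 and 91 without controls 20 and 21, 63 and 82 without knockouts 16 and 19). For the regional difference it was 378, and 248 to 699 (699 without control hippocampus library 17, 248 without 20). Members called with a library left out numbered 0 in hippocampus, 3 in cortex, 1 to 2 for the regional difference (Reln added without control hippocampus library 17), 3 to 5 between regions in controls and 4 to 7 in knockouts. The 17 sign changes concerned differences that were not called. With each library left out, the hippocampal log2 difference ran from -0.1045 to 0.03893 for Gad1, -0.1505 to 0.04935 for Dlx1, -0.04047 to 0.2175 for Dlx5, -0.001205 to 0.2989 for Reln and -0.0981 to 0.09586 for Adarb2. In cortex it ran from -0.1339 to 0.001741 for Dlx1 and -0.06623 to 0.1563 for Dlx2. The regional difference of Gad1 in controls ran from -0.007112 to 0.04792 and was -0.002335 with edgeR. The same alternatives were applied to list genes after the data were seen. Dlx2 had 30 to 66 reads per library. No paired analysis was possible, since the labels do not say whether hippocampus and cortex libraries come from the same mice. Contrasts over all 16 libraries treated the libraries as independent.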
